A study of Mus musculus with 8 samples.

Results

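GABA is the main inhibitory transmitter of the brain, and the expression of 9 mouse genes that make it, load it into vesicles, carry it back, break it down, sense it through the GABA-B receptor or set the chloride gradient on which GABA-A receptors depend was examined here. The 9 genes (Gad1, Gad2, Slc32a1, Slc6a11, Abat, Gabbr1, Gabbr2, Slc12a5 and Slc12a2) were chosen by function and matched by symbol, and all 9 were found among the 22337 genes of the deposited table. All 9 passed the filter on low values, an FPKM (a fragment count divided by transcript length and by the mapped fragments of the library) of at least 1 in at least 4 libraries. Nucleus accumbens tissue of male C57BL/6 mice with no stated genetic change gave 8 libraries, 4 after morphine and 4 after saline. The series calls the exposure chronic; the sources used here give no dose, schedule, age or interval before dissection. Morphine, the opioid given, activates above all mu opioid receptors. Whether each replicate was a separate animal or a pool is not stated in the labels, so the p-values below measure only how these libraries vary, which may be technical.

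The nucleus accumbens is the ventral part of the striatum, and nearly all of its neurons release GABA. Most are medium spiny projection neurons, with smaller classes of GABA interneurons and cholinergic interneurons among them. Glutamate is turned into GABA by the glutamate decarboxylases GAD67 (from Gad1) and GAD65 (from Gad2), packed into vesicles by the transporter VGAT (Slc32a1), taken up again by neurons and astrocytes and degraded by GABA transaminase (Abat). GABA-B receptors are obligate pairs of a ligand-binding subunit (Gabbr1) and a subunit that couples to Gi/o proteins (Gabbr2).

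Library sums of FPKM lay between 480003.6 and 540104.1, with 12287 to 12655 genes at 1 FPKM or more; read depth is unknown, since the deposited values carry no library total. Differences between groups are of log2(FPKM + 1), morphine minus saline, which understates the change of genes near 1 FPKM, and adjusted p-values are limma's, by Benjamini-Hochberg over 12536 tested genes. Of these, 316 passed an adjusted p of 0.05 (2.52%), 130 higher (1.04%) and 186 lower (1.48%), and 12.7% had groups that did not overlap. Mitochondrial genes took 9.09 to 12.62% of the FPKM sum in saline and 6.09 to 7.94% in morphine. Markers of medium spiny neurons, the defining cells of this tissue, were present in every library but unequally. Their 24 listed genes summed to 1522 to 1819 FPKM in saline replicates 1, 2 and 4, to 7222 FPKM in saline replicate 3 and to 564.9 to 684.8 FPKM with morphine, and 13 of the 24 fell with morphine while none rose. The 15 cortical glutamatergic markers summed to 313.1 to 350.4 FPKM in saline replicates 1, 2 and 4, to 111.9 FPKM in saline replicate 3 and to 358.8 to 417.0 FPKM with morphine. None of the listed markers of these 2 classes was at 0 in any library. In RNA from whole tissue, fewer cells of a type and less RNA per cell cannot be told apart.

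None of the 9 genes passed the test, so none is called changed; at an unadjusted p under 0.05 there were 4 (Gad2, Slc32a1, Abat and Gabbr1), beside 20.1% of all tested genes. Gad2, Slc32a1 and Abat nevertheless had every morphine value below every saline value; 6.1% of all tested genes showed that arrangement in the same direction. Gad1 had nearly equal group means. The median difference of the 9 genes was −0.28 on the log2 scale, 7 of them negative and 2 positive, where the median of all tested genes was 0.01.

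The Gad1, Gad2 and Slc32a1 genes all lie on mouse chromosome 2, and the bases before their RefSeq transcription starts are shown because Gad2 and Slc32a1 kept close to each other across the libraries and Gad1 did not. The windows are read 5′ to 3′ on the gene's strand (GRCm38.p6, plus strand for all 3), at chr2:70561879-70562041 for Gad1, chr2:22622077-22622204 for Gad2 and chr2:158610508-158610757 for Slc32a1. The Gad1 and Gad2 windows stop where a GENCODE exon of the gene begins, and the Slc32a1 window runs to its RefSeq start. The Gad1 window lies inside the GENCODE gene, which begins further upstream than the RefSeq start. Capitals mark the 1 motif match found.
Gad1: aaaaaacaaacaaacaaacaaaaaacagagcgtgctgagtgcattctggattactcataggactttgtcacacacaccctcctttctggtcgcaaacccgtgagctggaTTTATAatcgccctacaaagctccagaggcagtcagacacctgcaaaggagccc
Gad2: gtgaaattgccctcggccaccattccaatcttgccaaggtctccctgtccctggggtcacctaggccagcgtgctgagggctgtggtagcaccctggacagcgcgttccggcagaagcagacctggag
Slc32a1: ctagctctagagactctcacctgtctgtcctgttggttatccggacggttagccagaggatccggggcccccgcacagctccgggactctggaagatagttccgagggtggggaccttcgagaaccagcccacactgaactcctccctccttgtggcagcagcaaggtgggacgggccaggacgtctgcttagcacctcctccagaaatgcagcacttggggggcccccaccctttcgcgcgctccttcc

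Both strands of the 250 bases before the RefSeq start were searched for 5 motifs: the cAMP response element TGACGTCA, the AP-1 site TGANTCA, the TATA box TATAAA, the Egr site GCGTGGGCG and the homeodomain core TAATTA. The AP-1 letters read the same on both strands except at the open base, and the motifs did not overlap in these windows. Gad1 held TATAAA on the opposite strand, 135 bases before its start, a motif held by 12.37% of 32851 promoters of that length. Gad2 and Slc32a1 held none of the 5. Among the other genes with an entry, Slc12a5 held TGANTCA at 1 of its 2 starts, as did 6.75% of all promoters, and Gabbr1, Gabbr2 and Slc6a11 held none. The other 3 motifs occur in 1.55% (TGACGTCA), 0.54% (GCGTGGGCG) and 4.84% (TAATTA) of promoters. A match of letters is a description and not a binding site. RefSeq entries were matched for 7 of the 9 genes.

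Gad1 (ENSMUSG00000070880, chromosome 2, 70553072 to 70602014, plus strand, GRCm38), whose product GAD67 makes GABA throughout the cell, had the highest mean FPKM of the 9. It measured 131, 114, 234 and 122 FPKM in saline replicates 1 to 4 and 100.2, 128, 90.8 and 272 FPKM in morphine replicates 1 to 4. The groups overlapped completely, with 1 high library in each: saline replicate 3 and morphine replicate 4. Saline averaged 150.4 ± 56.0 FPKM and morphine 147.9 ± 84.5 FPKM (SD, n = 4 each), a log2 difference of −0.11 ± 0.33 (SE; 95% interval −0.84 to 0.63; limma adjusted p = 0.893). That interval reaches far to both sides of 0. Without morphine replicate 4 the difference was −0.45 ± 0.24 (SE; adjusted p = 0.377), and without saline replicate 3 it was 0.13 ± 0.31 (adjusted p = 0.878). The antisense gene Gad1os, not analysed here, overlaps Gad1 over 10286 bases on the opposite strand, and no strand setting is stated, so reads of the pair cannot be told apart.

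Gad2 (ENSMUSG00000026787, chromosome 2, 22622205 to 22693874, plus strand), whose product GAD65 sits at nerve terminals and supplies GABA for vesicles, had the largest difference of the 9. Its saline values were 47.3, 41.7, 131 and 57.3 FPKM in replicates 1 to 4, and its morphine values were 26.7, 30.2, 20.4 and 36.2. Every morphine library was below every saline library, and saline replicate 3 stood at 2.69 times the mean of the other saline libraries. The means were 69.3 ± 41.7 and 28.4 ± 6.59 FPKM (SD, n = 4 each), a log2 difference of −1.13 ± 0.32 (SE; 95% interval −1.83 to −0.43), which did not pass (limma adjusted p = 0.087; unadjusted p = 0.00464). Without saline replicate 3 the saline mean was 48.7 ± 7.93 FPKM (SD, n = 3) and the log2 difference −0.78 ± 0.18 (SE; limma adjusted p = 0.0593). Over leaving out each library in turn, the difference stayed between −1.32 and −0.78 with adjusted p between 0.0593 and 0.218.

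Slc32a1 (ENSMUSG00000037771, chromosome 2, 158610767 to 158615748, plus strand), the vesicular GABA and glycine transporter, followed Gad2. It measured 16.7, 13.7, 40.6 and 18.8 FPKM in saline and 10.9, 10.9, 8.13 and 13.48 FPKM in morphine. The groups did not overlap, but the highest morphine value lay just under the lowest saline value of 13.68 FPKM. The log2 difference was −0.88 ± 0.29 (SE; 95% interval −1.51 to −0.25; limma adjusted p = 0.125), and without saline replicate 3 it was −0.56 ± 0.17 (SE; adjusted p = 0.123). The antisense gene Gm14205, not analysed here, overlaps it by 911 bases.

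Abat (ENSMUSG00000057880, chromosome 16, 8513429 to 8621568, plus strand), the mitochondrial transaminase that degrades GABA in neurons and glia, was also lower in every morphine library than in every saline library. Saline values were 78.0, 86.7, 179 and 91.0 FPKM and morphine values 59.1, 71.6, 50.4 and 67.9. As for Gad2 and Slc32a1, saline replicate 3 was far above the rest and morphine replicate 3 was lowest. The means were 108.7 ± 47.4 and 62.3 ± 9.48 FPKM (SD, n = 4 each), with a log2 difference of −0.72 ± 0.24 (SE; 95% interval −1.25 to −0.20; limma adjusted p = 0.126). Without saline replicate 3 the saline mean was 85.2 ± 6.63 FPKM (SD, n = 3) and the log2 difference −0.46 ± 0.13 (SE; limma adjusted p = 0.107).

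**Figure D1:**
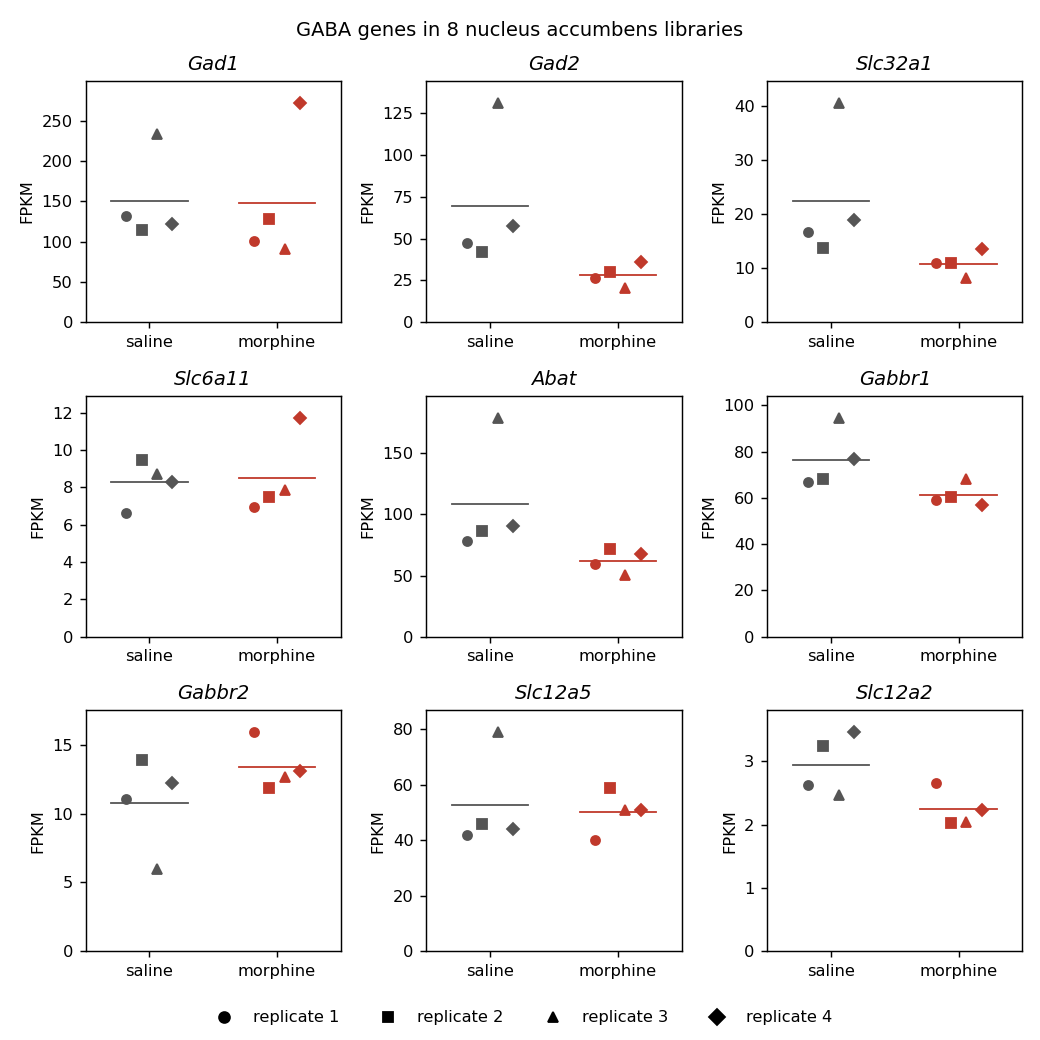
FPKM of each of the 9 genes in the 4 saline (grey) and 4 morphine (red) libraries, with the symbol giving the replicate number and the line the group mean; each vertical axis starts at 0. Saline replicate 3 is the highest saline library for 6 genes and the lowest for Gabbr2 and Slc12a2, and morphine replicate 4 alone is high for Gad1.

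The group differences of Gad2, Slc32a1 and Abat had the direction of most medium spiny neuron markers. Within groups their signs matched those of the markers in some libraries and not in others. Morphine replicate 4 differed from the mean of the other morphine libraries by 0.49, 0.41 and 0.18 (log2). The median of the 24 markers there was −0.19. For morphine replicate 1 the values were −0.08, 0.03 and −0.08, beside 0.30. In morphine replicates 2 and 3 all 3 genes had the sign of the markers. The same held in saline replicates 1, 2 and 4, where the libraries compared with include saline replicate 3. Gad2 was at −0.52, −0.75 and −0.15 there, Slc32a1 at −0.37, −0.74 and −0.16, and Abat at −0.52, −0.32 and −0.23. The marker medians were −0.76, −0.81 and −0.45. With the mean level of the 24 striatal markers per library as a covariate in limma, the log2 differences were 0.27 ± 0.30 for Gad2, 0.38 ± 0.27 for Slc32a1 and 0.31 ± 0.23 for Abat (SE; adjusted p between 0.696 and 0.815), each of the opposite sign to the difference without it. The marker mean itself separates the groups, from 4.86 to 7.16 in saline and from 3.22 to 3.67 in morphine (log2 scale), so the covariate and the treatment cannot be told apart. Saline replicate 3 alone exceeded the mean of the other saline libraries by 1.42 for Gad2, 1.27 for Slc32a1, 1.07 for Abat and 0.93 for Gad1 on the log2 scale, beside a median of 2.03 over the 24 striatal markers, −1.31 over the cortical markers and 0.01 over all tested genes.

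**Figure D2:**
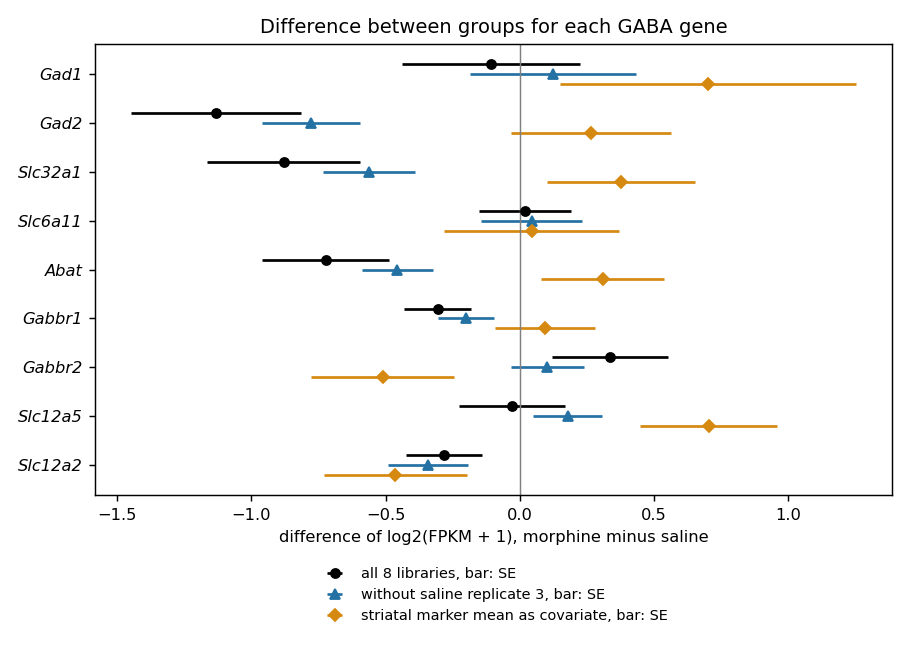
Difference of log2(FPKM + 1) between morphine and saline for each gene (points, with bars of 1 SE): all 8 libraries, without saline replicate 3, and with the mean of the striatal neuron markers as a covariate. Gad2, Slc32a1 and Abat lie left of 0 with all libraries (−1.13, −0.88 and −0.72), closer to 0 without saline replicate 3, and right of 0 with the covariate.

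Gad1 and Gad2 did not keep a fixed proportion. The ratio of their FPKM values was 2.78, 2.74, 1.78 and 2.13 in saline replicates 1 to 4 and 3.76, 4.24, 4.45 and 7.53 in morphine replicates 1 to 4. Every morphine library had a higher ratio than every saline library, and a ratio of FPKM values does not depend on how a library is scaled. Group differences of ratios were taken on log2(FPKM + 1). The means were 2.36 ± 0.487 and 4.99 ± 1.72 (SD, n = 4 each), a difference of 1.03 ± 0.27 (SE) on the log2 scale. An exact two-sided permutation test gave p = 0.0286, the smallest that 4 against 4 allows, and 0.0714 after Benjamini-Hochberg adjustment over the 5 ratios tested, which does not pass. Leaving out any 1 library kept the difference between 0.81 and 1.14. Leaving out both saline replicate 3 and morphine replicate 4 gave 0.68 (exact permutation p = 0.1, the smallest that 3 against 3 allows). That setting was added later, with the values known. The striatal covariate was not run for this ratio. With it, the separate limma log2 differences were 0.70 for Gad1 and 0.27 for Gad2, beside −0.11 and −1.13 without it.

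The other 3 ratios given here were less even. Slc32a1 to Slc17a7, the vesicular GABA transporter over the main vesicular glutamate transporter of cortical neurons, was 0.184, 0.14, 2.07 and 0.206 in saline and 0.078, 0.103, 0.074 and 0.127 in morphine. The groups did not overlap (log2 difference −1.72 ± 0.89 SE, exact permutation p = 0.0286, adjusted p = 0.0714 over 5), and without saline replicate 3 the difference was −0.85. Gabbr1 to Gabbr2 was 6.05, 4.91, 15.8 and 6.28 in saline and 3.72, 5.11, 5.37 and 4.36 in morphine, with overlap (adjusted exact permutation p = 0.143). Slc12a5 to Slc12a2 ran from 12.8 to 32.1 with saline and from 15.1 to 28.9 with morphine (adjusted exact permutation p = 0.429).

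**Figure D3:**
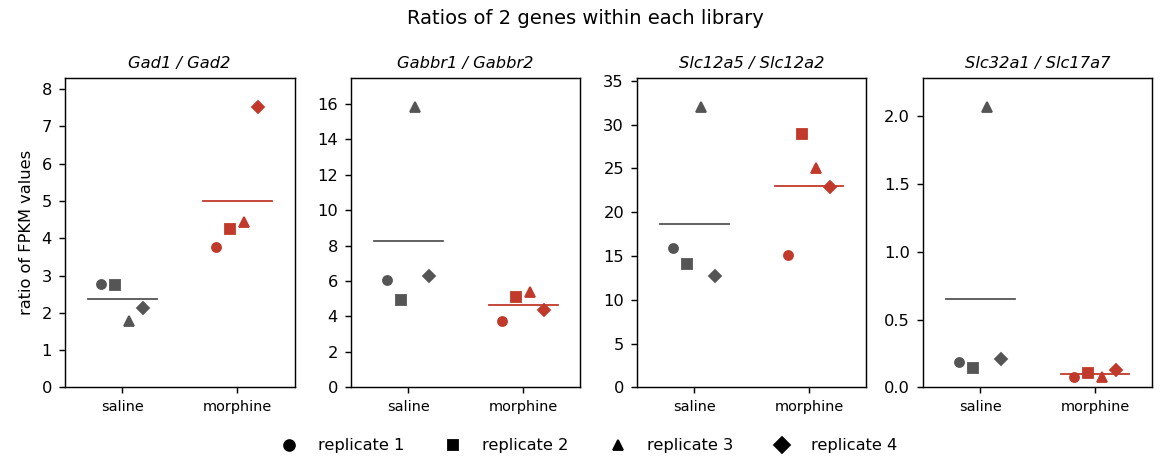
Ratio of the FPKM values of 2 genes within each library (vertical axes start at 0, lines are group means, symbols give the replicate number). The Gad1 to Gad2 ratio spans 1.78 to 2.78 with saline and 3.76 to 7.53 with morphine; in the ratios of Gabbr1 to Gabbr2, Slc12a5 to Slc12a2 and Slc32a1 to Slc17a7, saline replicate 3 stands above all other libraries.

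Morphine replicate 4, where Gad1 was 2.56 times the mean of the other morphine libraries, held the highest or lowest morphine value of some GABA neuron transcription factors and interneuron markers. Of 12 tested transcription factor genes of this kind, 6 were highest and 2 lowest of the 4 morphine libraries there, beside 2579 highest and 3140 lowest of all 12536 tested genes. Their 15 listed genes summed to 157.2 FPKM beside 84.3 to 108.0 in the other morphine libraries and 85.7 to 207.2 in saline. The examples that follow were chosen after their values were seen. Sp8, a transcription factor of olfactory bulb and other GABA interneurons, was at 7.86 FPKM in that library and between 0.90 and 2.76 in the other morphine libraries. Dlx1, a homeodomain factor of forebrain GABA neurons, was at 22.7 FPKM beside 6.65 to 11.6. Calb2, the calretinin gene, was at 261 FPKM beside 99.2 to 133, and Th, the dopamine synthesis enzyme, at 51.0 FPKM beside 1.64 to 16.8. Gad2 was 1.40 times and Slc32a1 1.35 times the mean of the other morphine libraries. Of the 16 interneuron markers 5 were highest and 6 lowest there, with a median log2 difference from the other morphine libraries of −0.06. Sst, the somatostatin gene, was lowest there, at 266 FPKM beside 443 to 814, as was Npy, the neuropeptide Y gene, at 338 FPKM beside 384 to 542. The 16 markers summed to 2136 FPKM there, within the 2135 to 3136 of the other morphine libraries, and above all but 1 saline library (529.6 to 2151). Such counts were not particular to replicate 4. Morphine replicate 1 held 8 highest and 4 lowest values of the 16 markers. It held 2 highest and 6 lowest values of the 12 transcription factor genes. The part of these genes in the Gad1 value was not tested.

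Among the 12 tested transcription factor genes of GABA neurons, 1 fell, none rose and 11 did not pass, with a median log2 difference of 0.02. Over all tested genes, 1.48% were called lower. Isl1, a LIM homeodomain factor of direct pathway and cholinergic striatal neurons, fell by 2.27 ± 0.34 (log2, SE; limma adjusted p = 0.0207), from 2.70 to 10.97 FPKM in saline to 0.06 to 0.96 in morphine; without morphine replicate 3 or morphine replicate 4 it missed the threshold (adjusted p = 0.0764 and 0.0618), as it did with the striatal covariate (−0.95, adjusted p = 0.468). Dlx1 had a log2 difference of 1.04 ± 0.28 and did not pass (adjusted p = 0.08). In the interneuron list 1 of 16 tested genes fell, none rose and 15 did not pass, with a median of 0.58. A single call in lists this short says nothing of either list as a group. The gene that fell was Chat, which marks the cholinergic rather than the GABA interneurons (log2 difference −1.65 ± 0.35 SE, limma adjusted p = 0.0449). It measured 1.65 to 8.56 FPKM in saline and 0.10 to 0.38 in morphine, and it missed the threshold without any 1 of the morphine libraries (adjusted p between 0.0785 and 0.135) and with the striatal covariate (adjusted p = 0.998). Isl1 and Chat each reached 1 FPKM in the 4 saline libraries only. Both therefore passed the filter only through the group where they were high. With 1 saline value under 1 FPKM neither would have been tested, so the filter had a part in these 2 calls. The interneuron list shares Lamp5 with the cortical list. Calb2, Nos1, Htr3a and Tac2 had all morphine values above all saline values, as did 6.56% of tested genes, and none of the 4 passed.

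Uptake genes showed no call. Slc6a11 (ENSMUSG00000030307, chromosome 6, 114131241 to 114249952, plus strand), the GABA transporter GAT3 found mainly on astrocytes, measured 6.64, 9.46, 8.70 and 8.27 FPKM in saline and 6.96, 7.46, 7.85 and 11.7 in morphine. The groups overlapped throughout, and morphine replicate 4 was again highest. The log2 difference was 0.02 ± 0.17 (SE; 95% interval −0.36 to 0.40; limma adjusted p = 0.967). In the same libraries 4 of 15 tested astrocyte markers fell and none rose, beside 1.48% of all tested genes called lower. Their median was −0.43, and their sum ranged from 2612 to 3437 FPKM in saline and from 1801 to 2240 in morphine. Of the 5 tested genes among the other transporters and GABA-degrading enzymes none passed, all 5 differences were negative and the median was −0.39. The largest was that of the transporter gene Slc6a13, −1.59 ± 0.46 (SE; limma adjusted p = 0.094), with overlapping groups. For 2 of the 5, Aldh5a1 and Aldh9a1, every morphine value was below every saline value, as for 6.1% of all tested genes. Slc6a12, a betaine and GABA transporter, did not reach the filter.

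Supply of the precursor was likewise without a call. None of 10 tested genes of glutamine and glutamate supply passed, with a median log2 difference of −0.17. Glul, the astrocyte enzyme that makes glutamine, ranged from 254 to 357 FPKM in saline and from 189 to 271 in morphine.

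The 2 GABA-B receptor subunits differed in opposite directions, neither past the threshold. Gabbr1 (ENSMUSG00000024462, chromosome 17, 37045966 to 37075067, plus strand) measured 66.8, 68.0, 94.8 and 76.7 FPKM in saline and 59.3, 60.6, 68.1 and 57.1 in morphine. Its groups overlapped only in morphine replicate 3, which was above 2 saline libraries. The log2 difference was −0.31 ± 0.13 (SE; 95% interval −0.58 to −0.03; limma adjusted p = 0.209), and without saline replicate 3 it was −0.20 ± 0.105 (SE). Gabbr2 (ENSMUSG00000039809, chromosome 4, 46662305 to 46991873, minus strand) measured 11.03, 13.9, 5.98 and 12.2 FPKM in saline and 15.9, 11.9, 12.7 and 13.1 in morphine. Saline replicate 3, high in Gabbr1, was the lowest of all 8 libraries in Gabbr2, at 0.483 times the mean of the other saline libraries. The Gabbr2 difference was 0.34 ± 0.22 (log2, SE; limma adjusted p = 0.42), and without that library it was 0.10 ± 0.14 (SE).

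Genes that work with the GABA-B receptor held the 1 call of the pathway that was higher with morphine. Of 10 tested partner genes 1 rose, none fell and 9 did not pass, with a median log2 difference of 0.09. Among all 12536 tested genes, 1.04% were called higher. A single call in so short a list says nothing of the partner genes as a group. Kcnj9, which encodes the GIRK3 subunit of the potassium channels opened by Gi/o-coupled receptors, measured 18.9, 21.7, 13.9 and 19.7 FPKM in saline and 40.3, 32.9, 30.8 and 28.5 in morphine. The lowest morphine library was above the highest saline library. The means were 18.5 ± 3.33 and 33.1 ± 5.12 FPKM (SD, n = 4 each), a rise of 0.81 ± 0.15 (log2, SE; limma adjusted p = 0.0319). It passed without saline replicate 3 (0.68, adjusted p = 0.0332) or saline replicate 4, and it missed the threshold without any 1 of the other 6 libraries (adjusted p between 0.0668 and 0.101) and with the striatal covariate (0.39, adjusted p = 0.636). The other GIRK subunits in the list had positive differences that did not pass, and they were not tested against Kcnj9. Kcnj3 ranged from 6.03 to 19.9 FPKM in saline and from 16.8 to 23.4 in morphine (log2 difference 0.43 ± 0.31 SE, limma adjusted p = 0.466). Kcnj6 ranged from 1.28 to 10.2 FPKM and from 5.12 to 8.06 FPKM (0.47 ± 0.41 SE, limma adjusted p = 0.565). Kctd8, a GABA-B auxiliary subunit, was at 23.4 FPKM in saline replicate 3 and between 0.77 and 4.47 in the other 7 libraries.

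Chloride carriers set whether GABA-A currents hyperpolarise a cell. Slc12a5 (ENSMUSG00000017740, chromosome 2, 164960802 to 164999731, plus strand), the neuronal chloride extruder KCC2, measured 41.8, 45.7, 78.9 and 44.2 FPKM in saline and 40.2, 58.8, 51.0 and 50.9 in morphine. Saline replicate 3 was highest; the other saline libraries averaged 43.9 ± 1.95 FPKM (SD, n = 3), and 3 of the 4 morphine libraries lay above all 3 of them. The log2 difference was −0.03 ± 0.20 (SE; 95% interval −0.47 to 0.41; limma adjusted p = 0.954) and 0.18 ± 0.13 without saline replicate 3 (adjusted p = 0.512); its sign also turned without morphine replicate 1 (0.07) and with the striatal covariate (0.70). Slc12a2 (ENSMUSG00000024597, chromosome 18, 57878678 to 57946821, plus strand), the chloride importer NKCC1 of glia, choroid plexus and immature neurons, had the lowest mean FPKM of the 9. It measured 2.63, 3.24, 2.46 and 3.46 FPKM in saline and 2.66, 2.03, 2.04 and 2.23 in morphine, and morphine replicate 1 fell within the saline range. Its log2 difference was −0.28 ± 0.14 (SE; 95% interval −0.59 to 0.03; limma adjusted p = 0.295). Slc12a2 was the 1 gene of the 9 with the same sign under every alternative in which it was tested (−0.46 to −0.22). Of 13 tested genes among the other chloride carriers and the kinases that regulate them none passed, with a median of −0.05.

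Ordered by mean FPKM, saline libraries ran Gad1, Abat, Gabbr1, Gad2, Slc12a5, Slc32a1, Gabbr2, Slc6a11, Slc12a2. FPKM is per length, but whether priming, amplification and the unstated annotation treat these genes alike is unknown. The Gad1 value may also hold reads of Gad1os. The order is therefore one of FPKM values and not of transcript numbers. Only 2 neighbouring pairs had ranges that did not overlap, Slc12a5 above Slc32a1 and Slc6a11 above Slc12a2, although Gad1 exceeded Abat in all 4 libraries. In morphine the order was Gad1, Abat, Gabbr1, Slc12a5, Gad2, Gabbr2, Slc32a1, Slc6a11, Slc12a2. There Gad1 was above Abat without overlap, Abat and Gabbr1 were not separated (Abat was higher in 2 of 4 libraries), and Slc12a5 lay above Gad2 without overlap. Gad2 thus stood above Slc12a5 in 3 of 4 saline libraries and in no morphine library.

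Likeness of pattern was measured as the root mean square difference between centred log2(FPKM + 1) profiles over the 8 libraries. Neighbours were sought among the tested genes other than predicted genes (Gm symbols) and Rik clones. The gene nearest to Slc32a1 was Gad2 (0.148 on the log2 scale, where the profile of Slc32a1 itself varied by 0.62), followed by Rdh10 (0.149). Gad2 was nearest to Spock3 (0.116) and Arg2 (0.137). Gad1 was nearest to Cbln4 (0.104), which was at 2.61 FPKM in saline replicate 3 and 3.30 in morphine replicate 4 and between 0.32 and 1.20 in the other libraries, and to Fam20c (0.134). Abat was nearest to Xrcc3 (0.0996) and Fam184b (0.107). For the receptor subunits the nearest genes were Tmem184b (0.0568) and Plagl2 (0.0657) for Gabbr1 and Dtl (0.0842) and Fbxw7 (0.0909) for Gabbr2. Slc12a5 was nearest to Dstyk (0.0844) and Thap4 (0.105), Slc12a2 to Rnf139 (0.0749) and Cpne3 (0.0847), and Slc6a11 to Sirt4 (0.0993) and Spag1 (0.104). These are descriptions of 8 libraries that also share the marker differences given above.

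**Figure D4:**
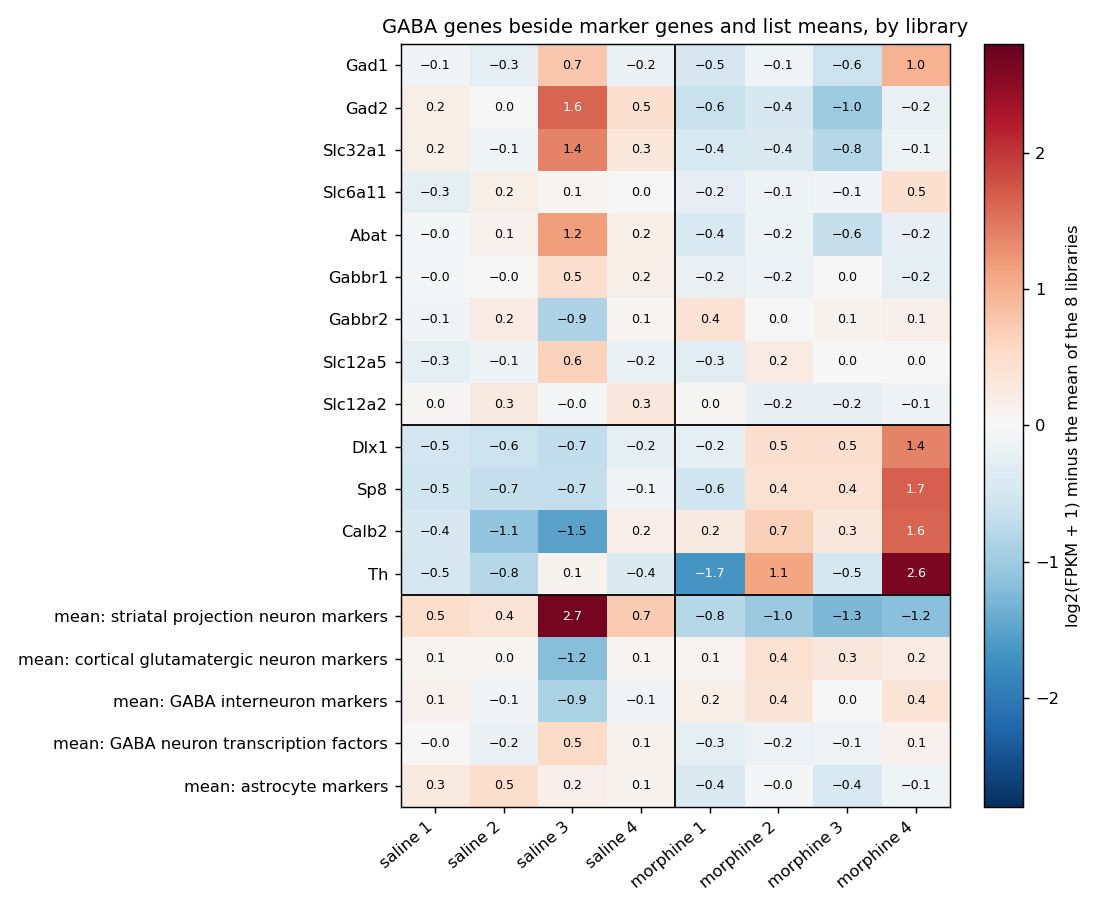
Each cell gives log2(FPKM + 1) in 1 library (columns) minus the mean of the 8 libraries, for the 9 genes (top), 4 further genes (middle) and the means of 5 marker lists (bottom). The 4 further genes were chosen after their values were seen. Gad2, Slc32a1 and Abat are highest in saline replicate 3 (1.63, 1.39 and 1.16), as is the striatal marker row. All these rows are lower in every morphine library than in every saline library, though their order within morphine differs. Gad1 has a second peak of 0.97 in morphine replicate 4, where Sp8 and Calb2 reach 1.67 and 1.63. Of the 16 interneuron markers, 5 are the highest and 6 the lowest of the morphine libraries there.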

How the data were processed

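The authors deposited 1 table of FPKM values, 1 column per library per the file headers, rounded to 2 decimals. Per the labels' protocols, Trizol RNA was reverse transcribed from oligo-dT with a template-switching oligonucleotide and amplified by PCR; no molecular identifiers are named. The submitters' processing notes name fastp 0.18.0, Bowtie2 2.2.8, HISAT2, StringTie 1.3.1, RSEM and mm10; roles, annotation and strandedness were not given in the sources used here. Since FPKM is relative, a rise in one class of transcripts lowers the rest. Rounded low values could not be resolved into whole reads, so no count model was used. Symbols and 1-based coordinates are from GENCODE M21 (GRCm38; 22232 of 22337 identifiers matched), promoters from RefSeq (GRCm38.p6).

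Values were tested as log2(FPKM + 1) with limma 3.58.1 in R 4.3.3 (mean-variance trend, no block, two-sided), and 5 within-library ratios with exact permutation tests over 70 assignments (scipy 1.17.1), of which 1 is not reported here. No library copied another (0.49 to 1.11% identical values). The members and gene lists were chosen with earlier results of these data known. Named were all 9 members, list genes past the threshold, Slc17a7 and the 2 nearest profiles per member; other list genes are given as examples, chosen after their values were seen. Alternatives covered pseudocount, filters, trend, weights, block, scaling, a striatal covariate and left-out libraries.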

Additional observations from a re-analysis of the deposited data

Results flagged for a closer look

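In 36 groups of 4 values examined (9 GABA genes, 4 pathway genes and 5 ratios in 2 groups each), 8 had 1 library separated from the other 3 by more than Dixon's 95% critical share of the group's range. In 7 of the 8 that library was saline replicate 3, which held the highest saline value of Gad1 (233.7 FPKM), Abat (179.3 FPKM), Slc12a5 (78.9 FPKM) and Chat (8.56 FPKM) and the highest ratios of Gabbr1 to Gabbr2 (15.85), Slc12a5 to Slc12a2 (32.07) and Slc32a1 to Slc17a7 (2.071). The other was Isl1 in morphine replicate 1 (0.96 FPKM, beside 0.06 to 0.12 in the other morphine libraries). The high Gad1 value of morphine replicate 4 (272 FPKM) did not exceed that limit.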

How the results depend on the processing

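None of the 9 GABA genes passed under any alternative. The 5 ratios kept their direction with a pseudocount of 0.1 and with 1 library left out. The replicate block leaves the difference of a ratio unchanged by design. The striatal covariate, weights, filters and scalings were not run for ratios. Under that covariate Gabbr1 was positive and Gabbr2 negative, the reverse of the direction of their ratio. No ratio could have passed with 1 library left out (smallest exact permutation p 0.0571) or with the replicate block (0.125), so those settings say nothing of its call. The sign of a gene's log2 difference turned in 20 cases. With the striatal covariate it became 0.70 for Gad1, 0.27 for Gad2, 0.38 for Slc32a1, 0.31 for Abat, 0.094 for Gabbr1, −0.51 for Gabbr2 and 0.70 for Slc12a5. With array weights it became 0.11 for Gad1 and 0.060 for Slc12a5. For Slc6a11 it became −0.036 with mitochondrial genes removed, −0.035 with upper quartile scaling and −0.10 without both saline replicate 3 and morphine replicate 4, a setting in which Slc12a5 was at 0.17. Leaving out 1 library moved Gad1 between −0.45 and 0.13, Slc12a5 between −0.12 and 0.18 and Slc6a11 between −0.13 and 0.10; the cause was not tested. The calls of Kcnj9, Isl1 and Chat were lost without a filter (adjusted p = 0.0678, 0.0548 and 0.0941).

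Counts over all genes (130 higher, 186 lower) depended far more on the setting: 8 and 9 without a filter, 111 lower at an FPKM of at least 5, 84 higher without the trend, 304 and 402 with array weights, 74 higher with mitochondrial genes removed, 75 higher with upper quartile scaling, 2 and 1 with the striatal covariate, and 39 and 56 without both saline replicate 3 and morphine replicate 4. The share of higher calls was 41.1%, and 21.4% and 22.3% under the 2 scalings. Leaving out 1 library gave 0 to 183 higher and 0 to 212 lower genes, and no call at all when the library left out was morphine replicate 3 or 4 or saline replicate 2 (limma; 0 genes, with 1936 to 2120 genes at an unadjusted p under 0.05). With the replicate block the counts were 2 and 3, and Kcnj9, Isl1 and Chat had adjusted p of 0.0644, 0.0537 and 0.0772. The labels do not say whether equal numbers share an animal or batch. Deviations of same-numbered libraries correlated between −0.205 and 0.0522, and those of differently numbered libraries between −0.0857 and 0.115. Correlations over so few libraries cannot show whether the numbers pair the libraries, so pairing is unknown. Isl1 and Chat were not tested when a saline library was left out or at an FPKM of at least 5, because too few libraries reached the filter. Slc12a2 was not tested at an FPKM of at least 5. The unknown read depth limits the genes near 1 FPKM most.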
